A study of Mus musculus with 6 samples.

Results

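The CLK and SRPK genes encode the protein kinases that phosphorylate SR proteins, the serine- and arginine-rich factors that help the spliceosome recognise exons. The members were taken by name: Clk1, Clk2, Clk3, Clk4, Srpk1 and Srpk2, with every exonic part whose gene identifier maps to one of them. They make up 6 of 36889 gene identifiers and 179 of 368092 exonic parts, where an exonic part is a stretch of sequence bounded by every annotated exon edge. Clk4 shares its identifier with the small RNA gene Gm25082, so its values are those of a joined locus.

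The libraries were 3 labelled CD2BP2 knockout (KO) and 3 labelled wild type (WT), all from podocytes, the filtration epithelium of the kidney, on a C57BL/6 background, as polyadenylated RNA. CD2BP2 is a protein of the U5 small nuclear ribonucleoprotein. The labels describe a floxed Cd2bp2 allele with a loxP site placed behind exon 3, freed of its neomycin cassette by a FLPO deleter, but name no Cre driver for podocytes. Their treatment text, and the only age given, belong to poly(I:C)-treated MxCre mice and cultured marrow macrophages, which goes against the podocyte label. They do not say whether libraries came from separate animals, so every p given here reflects only the spread among these 6 libraries, which may be technical.

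Total part counts ran from 186022084 to 255554573 per library. Cd2bp2 itself stood at 61.2 ± 0.564 CPM (SD, n = 3) in WT and 48.9 ± 1.93 (SD, n = 3) in KO, in counts rescaled by effective library size (CPM), a log2 change of -0.32 (adjusted p = 0.0297, edgeR quasi-likelihood test with Benjamini-Hochberg adjustment). With 1 library left out, that edgeR adjusted p ran from 0.0457 without KO3 to 0.146 without WT2, and only the fit without KO3 passed. All 14 podocyte markers were detected, and their summed level was 24599 to 27759 CPM in WT and 22739 to 24680.4 CPM in KO. Of these, 1 passed the test, Nphs1, at 2902 ± 121 CPM in WT and 2014 ± 192 in KO (SD, n = 3, edgeR adjusted p = 0.0350). Endothelial markers (11 genes) summed to 8783 to 9290.5 CPM in WT and 8149 to 8818 CPM in KO. Mesangial and smooth muscle markers (10 genes) summed to 2931 to 3209 CPM in WT and 2751 to 3296 CPM in KO. The 13 macrophage markers summed to 107 to 139 CPM in WT and 204 to 222 CPM in KO. Loop, distal tubule and collecting duct markers (12 genes) summed to 179 to 336 CPM in WT and 264 to 1408 CPM in KO, the highest value being that of KO2. Proximal tubule markers (13 genes) ran from 638 to 1105 CPM in WT and from 970.5 to 1444 CPM in KO, so these 2 tubule sums overlapped between groups. Gene by gene, 0 markers of the macrophage, loop and proximal lists had a log2 change under 0 (medians 0.84, 1.63 and 0.54). In edgeR 4, 1 and 1 of them passed as higher in KO, where 3.37% of all genes passed in either direction. A change under 0 was found for 10 of 14 podocyte, 10 of 11 endothelial and 7 of 10 mesangial and smooth muscle markers. No list had a defining marker at 0. The part of these other cells in the results was not tested, and in bulk RNA fewer cells of a type and less RNA per cell cannot be told apart.

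CLK kinases are dual-specificity enzymes of the nucleus that act on SR proteins in and around nuclear speckles, whereas SRPKs act mainly in the cytoplasm on arginine-serine repeats before SR proteins are imported. CLK transcripts are themselves known for regulated splicing: skipping of a short cassette exon ahead of the kinase domain gives a frame-shifted product without catalytic activity, and the introns beside that exon are often retained in RNA that stays in the nucleus. The retained forms are known as a store of the message.

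The cassette exon was found in all 4 CLK genes by its place before 8 exons whose lengths (67, 117, 167, 95, 130, 83, 80 and 91 bases) are the same in each. Its sequences are shown because the measurements on intron retention and skipping turn on it, with exon bases in capitals and, where a retained-intron transcript supplies them, 15 intron bases on each side in lower case. They come from GENCODE M21 transcripts, 5′ to 3′ on the gene's strand, and the positions given afterwards are those of the files on NCBIM37.
Clk1: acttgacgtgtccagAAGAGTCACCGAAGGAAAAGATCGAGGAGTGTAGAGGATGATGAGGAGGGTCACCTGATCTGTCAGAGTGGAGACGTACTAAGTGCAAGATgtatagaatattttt
Clk2: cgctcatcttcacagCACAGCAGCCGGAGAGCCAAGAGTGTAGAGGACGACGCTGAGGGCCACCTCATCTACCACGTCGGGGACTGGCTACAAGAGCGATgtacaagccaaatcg
Clk3: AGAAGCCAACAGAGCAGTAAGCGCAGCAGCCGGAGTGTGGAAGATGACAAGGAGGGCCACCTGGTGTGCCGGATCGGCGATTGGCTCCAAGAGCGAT
Clk4: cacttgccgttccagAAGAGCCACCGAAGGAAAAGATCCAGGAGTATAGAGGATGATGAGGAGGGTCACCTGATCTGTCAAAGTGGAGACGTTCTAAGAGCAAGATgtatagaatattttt

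These exons lie at chr1:58476965-58477055 (minus strand, Clk1), chr3:88973540-88973624 (plus strand, Clk2), chr9:57606434-57606530 (minus strand, Clk3) and chr11:51086580-51086670 (plus strand, Clk4). The Clk1 and Clk4 exons were 91 bases long and identical at 85 of them (93.4%), while every other pair matched at 59.3% to 66.0% of the longer exon in a global alignment. The first 15 intron bases downstream of the exon were identical in Clk1 and Clk4 at all 15 positions, against 6 of 15 for either gene with Clk2. The longest identical run between the coding transcripts of Clk1 and Clk4 was 34 bases, and 49 bases over the cassette exon with the introns on both sides of it. The other introns were not compared in this way. In Clk2 the files carry the exon with 3 further bases at its upstream edge, 88 in all. Each length (91, 88, 97 and 91 bases) leaves a remainder of 1 on division by 3, so skipping shifts the frame in all 4 genes. Among annotated transcripts that hold both neighbouring exons, 3 of 6 skip it in Clk1, 1 of 7 in Clk2 and 3 of 6 in Clk4. Of the skipping forms, 2 in Clk1, 1 in Clk2 and 2 in Clk4 are annotated as targets of nonsense-mediated decay. The remaining skipping form is annotated as a retained intron in Clk1 and as protein coding in Clk4.

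All 6 kinase genes were lower in the KO libraries, at 76.7% to 93.0% of the WT level in the fit, and none passed the test. A log2 change under 0 was found for 49.1% of all genes. In each gene the highest KO library lay under the lowest WT library, which held for 14.8% of the 19742 genes tested and for 28.3% of the 3905 genes expressed at least as highly as the lowest member. For Srpk2 the separation was seen only with part 1 counted, which overlaps another gene. Of the 6, 5 had an unadjusted p under 0.05 in edgeR's quasi-likelihood test and were lower in KO, against 11.2% of all genes and 23.7% of those similarly expressed. After Benjamini-Hochberg adjustment 0 of 6 passed, where 3.37% of all genes did in either direction and 1.76% as lower in KO. The median log2 fold change was -0.23 over the members, 0.01 over all genes and -0.06 over genes at or above the lowest member's level.

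Clk1, the most abundant of them, had levels of 492, 518 and 507 CPM in the WT libraries and 433, 362 and 428 CPM in KO. The groups were separate and KO2 was the lowest. The log2 fold change of the level was -0.31 (SE 0.08, adjusted p = 0.0901 in edgeR's quasi-likelihood test). Clk2, which has also been linked to hepatic gluconeogenesis, stood at 92.7, 98.7 and 96.8 CPM in WT and 75.4, 64.5 and 81.1 CPM in KO, again with KO2 lowest. Its log2 change of -0.38 (SE 0.09) was the furthest from 0 of the 6, with an adjusted p of 0.0696 in edgeR's quasi-likelihood test.

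Clk3 read 71.2, 79.7 and 78.9 CPM in WT and 61.5, 61.8 and 69.1 CPM in KO (log2 change -0.26, SE 0.07, edgeR adjusted p = 0.104). KO3 and WT1 came within a few CPM of each other. Clk3 parts 1 to 3 overlap Edc3, a gene for a decapping enhancer, so reads of the pair cannot be told apart there. Clk4, the closest relative of Clk1, was at 152, 139 and 136 CPM in WT and 129.6, 121 and 124 CPM in KO (log2 change -0.19, SE 0.06, edgeR adjusted p = 0.130).

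Srpk1, known for its control of VEGF-A splicing through SRSF1, stood at 68.0, 69.6 and 70.3 CPM in WT and 60.6, 55.8 and 64.1 CPM in KO. Its log2 change was -0.20 (SE 0.06, edgeR adjusted p = 0.121). Srpk2 had the smallest difference, with 64.7, 70.6 and 67.3 CPM in WT and 64.0, 62.5 and 62.0 CPM in KO. Here the groups were separated by less than 1 CPM, and the log2 change of -0.10 (SE 0.05) had an unadjusted p of 0.0692 and an adjusted p of 0.258 in the edgeR fit. Srpk2 part 1 (2096 bases, 23.2% ± 3.03 of its counts in WT, SD, n = 3) overlaps another gene. With that part set aside, the Srpk2 groups overlapped in CPM. Counting only parts that overlap no other gene, the log2 change was -0.07 (SE 0.07, unadjusted p = 0.314, edgeR).

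**Figure D1:**
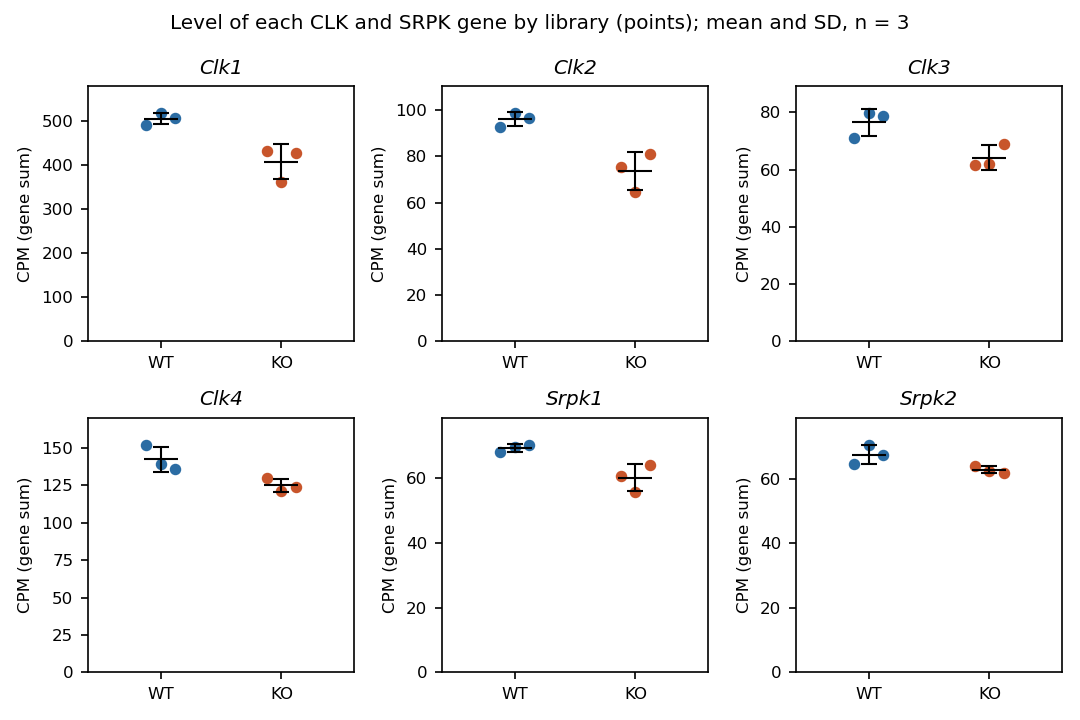
Level of each gene in CPM (vertical axis from 0) for the 3 WT and 3 KO libraries as points, with mean and SD as black bars. In all 6 panels the KO points lie under the WT points, most narrowly for Srpk2.

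DESeq2, the one alternative test that changed calls for single members, placed Clk1 (adjusted p = 0.00956), Clk2 (0.00345) and Clk3 (0.0319) past the threshold with the same log2 changes. It called 4.62% of 26939 genes lower in KO, a set of all genes with any count and wider than the 19742 tested in edgeR. The share among similarly expressed genes was not taken for DESeq2. With only the longest part of each gene counted, the Clk1 change shrank to -0.07 (adjusted p = 0.905, edgeR). That part is a 1811-base stretch at the 3′ end holding 0.0744% ± 0.0146 of Clk1 counts in WT (SD, n = 3).

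Levels can be compared between genes only per length, so exons of equal length were used. Over the 80- and 91-base exons together (171 bases), the WT level was 307 ± 4.19 CPM per kb for Clk1, 76.3 ± 1.90 for Clk4, 62.9 ± 5.74 for Clk3 and 53.6 ± 3.71 for Clk2 (SD, n = 3 each). Clk1 was thus the most abundant by a wide margin, while the SDs of Clk3 and Clk2 reached close to each other and the Clk3 exons include Edc3 reads. In KO the same exons gave 248 ± 26.1 CPM per kb for Clk1, 65.4 ± 5.14 for Clk4, 53.8 ± 1.57 for Clk3 and 40.9 ± 3.98 for Clk2 (SD, n = 3), the same order.

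The 67- and 117-base exons (184 bases), which do not overlap Edc3, gave WT levels of 313 ± 13.2 CPM per kb for Clk1, 57.4 ± 2.79 for Clk3 and 54.1 ± 1.53 for Clk2 (SD, n = 3). Clk3 and Clk2 did not differ there beyond their spread. Over 8 exons of matching length (821 bases), Srpk1 stood at 23.1 ± 0.644 CPM per kb and Srpk2 at 20.5 ± 1.09 in WT, and at 20.5 ± 1.11 and 19.6 ± 0.179 in KO (SD, n = 3). Both SRPK values were under the CLK values, but the exons used differ in length between the families, so the families were not compared on equal terms. The KO levels of Srpk1 and Srpk2 overlapped.

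Usage of single parts, meaning a part's count relative to the rest of its gene, was tested for 171 of the 179 member parts. None passed the diffSpliceDGE test of edgeR (smallest adjusted p 0.510), where 0.0627% of all 236061 tested parts did. At an unadjusted p under 0.05 in the same test there were 10 member parts, against 1.16% of all parts, and all 10 were used more in KO, against 0.595% of all parts. By share of the gene sum, 26 of the 171 were separate and higher in KO, against 5.48% of all parts, and 16 were separate and lower, against 5.69%. Of the 10 with an unadjusted p under 0.05, 9 were in Clk1 and lay in introns of its coding transcript, and 1 was a 2-base part at the 3′ end of Clk2 with a usage change of 1.19 on the log2 scale. That Clk2 part rests on counts of 12, 5 and 5 in WT and 5, 16 and 26 in KO, and its shares overlapped between groups. Summed over a gene by Simes' method in edgeR, each member had an adjusted p of 1.00, while 0.383% of genes passed. No member part among the 26 followed through the alternatives moved past the threshold.

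Of the 9 Clk1 parts, 7 (parts 16 to 22 by ascending coordinate, against the direction of transcription) lie in a single intron, between the 167- and 95-base exons at chr1:58471529-58473856, and cover 1850 of its bases. The exons at either end belong to the kinase domain. The 2 edges of that intron are shown for the bases that the spliceosome reads, with exon bases in capitals and 40 intron bases in lower case, from the same GENCODE transcripts.
Clk1 5′ edge: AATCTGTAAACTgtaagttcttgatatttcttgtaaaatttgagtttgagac
Clk1 3′ edge: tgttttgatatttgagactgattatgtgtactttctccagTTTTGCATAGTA

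The intron began with gtaagt and ended with cag. Its parts held 4.76%, 4.60% and 3.98% of all Clk1 counts in WT and 5.28%, 5.91% and 6.69% in KO, so every KO share was above every WT share (4.45% ± 0.409 against 5.96% ± 0.706, SD, n = 3). The largest single piece, part 16 of 973 bases, had shares of 2.21%, 2.12% and 1.97% in WT and 2.45%, 2.87% and 3.21% in KO. Its usage change was 0.44 on the log2 scale (unadjusted p = 7.6e-04, edgeR diffSpliceDGE), and the other 6 pieces had changes of 0.38 to 0.53. These pieces share reads and molecules and are not independent of each other.

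In CPM no separation was seen for the same sequence: the parts of this intron summed to 23.4, 23.8 and 20.2 in WT and 22.9, 21.4 and 28.6 in KO, and the groups overlapped (22.5 ± 1.98 against 24.3 ± 3.82, SD, n = 3). Over 14 Clk1 parts in 8 introns, the level was 82.3 ± 1.41 CPM in WT and 76.6 ± 9.14 in KO, with overlap, while the 21 other parts gave 423 ± 14.4 and 331 ± 31.8 CPM, without overlap (SD, n = 3). The lower Clk1 total in KO thus lay mostly in these other parts, which include the intron-like part 5. They stood at 78.2% ± 7.50 of the WT mean against 93.1% ± 11.1 for the listed intron parts (SD, n = 3).

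Clk4 showed the same arithmetic. Its 10 parts in 7 introns were at 22 ± 2.99 CPM in WT and 21.7 ± 1.84 in KO, and its other parts at 120.2 ± 6.24 and 103 ± 2.74 (SD, n = 3). In Clk2 both classes had lower means in KO: 8.52 ± 0.346 and 7.41 ± 1.35 CPM for 5 intron parts, with overlap, and 87.5 ± 3.11 and 66.3 ± 7.34 CPM for the rest, without overlap (SD, n = 3). The difference in change between intron parts and other parts was not given a test of its own beyond the usage fit.

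**Figure D2:**
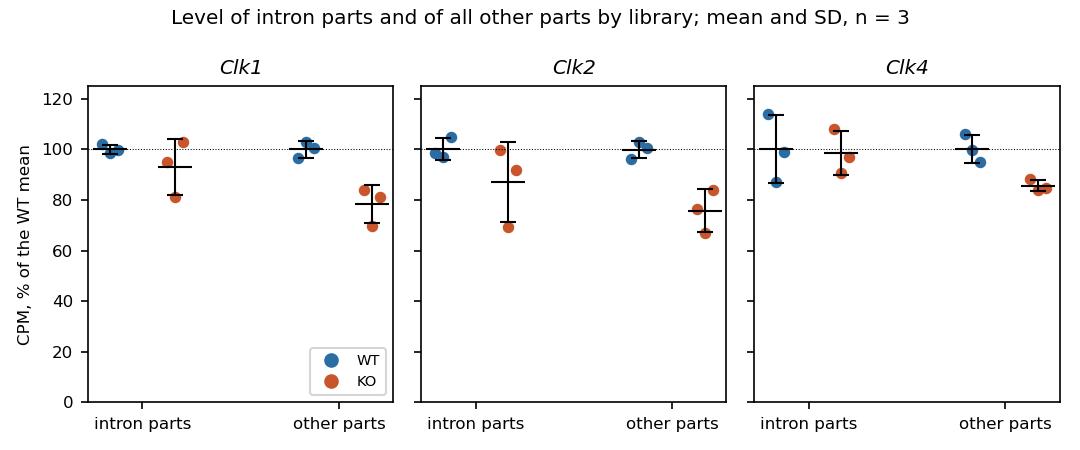
Summed level of intron parts and of all other parts in Clk1, Clk2 and Clk4, as a percentage of the WT mean in CPM, for each library (points) with mean and SD (bars). In all 3 genes the KO points of the other parts lie under the WT points, while the intron parts overlap.

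**Figure D3:**
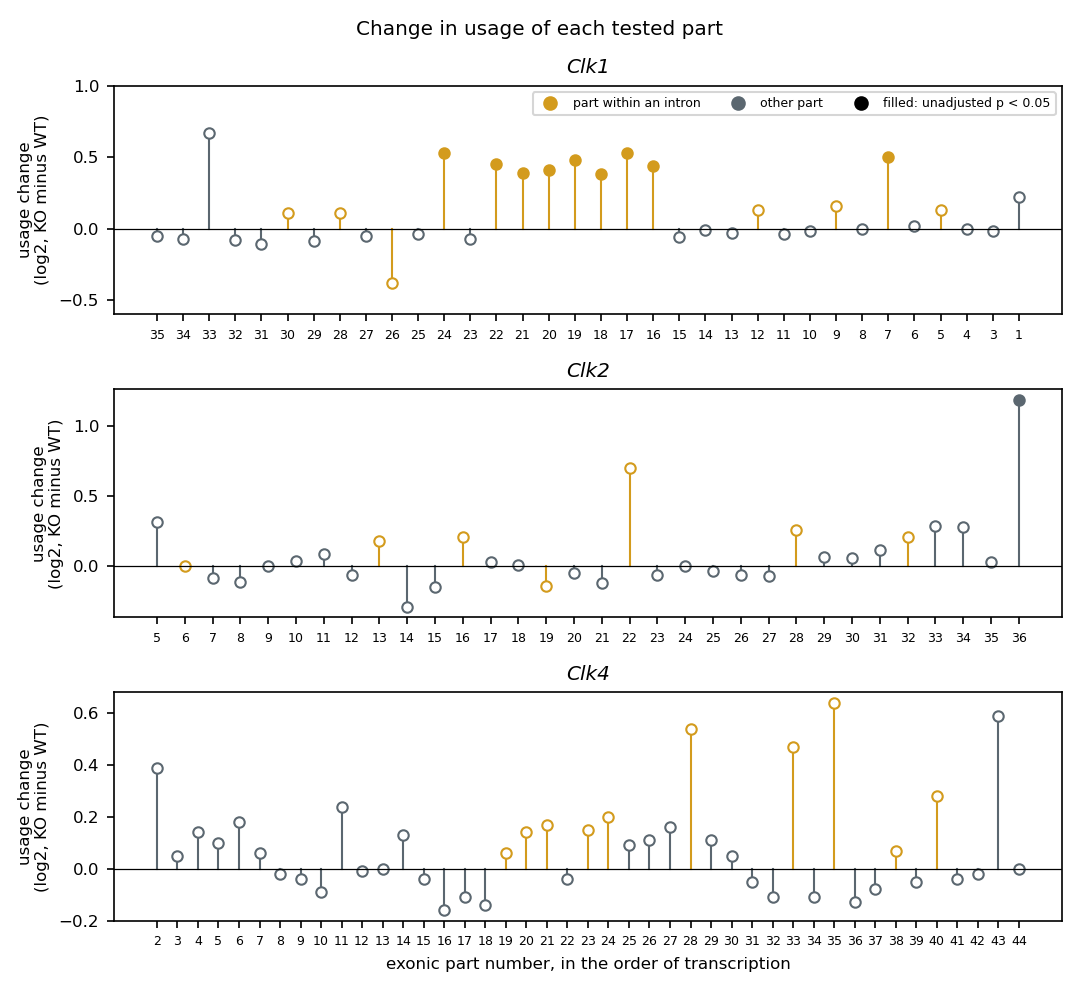
Usage change of each tested part of Clk1, Clk2 and Clk4 on the log2 scale (vertical axis, KO minus WT) in the order of transcription, with intron parts in yellow and filled points for an unadjusted p under 0.05. The run of filled yellow points in Clk1, parts 22 to 16, is the intron between the 167- and 95-base exons.

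The density of an intron over the mean density of its 2 flanking exons gave the same quantity without the rest of the gene. This measure was chosen after values were seen and carries no test unless one is named. For the intron between the 167- and 95-base exons, Clk1 had 5.09%, 4.78% and 4.35% in WT and 5.88%, 6.43% and 7.62% in KO. The counterpart in Clk4 (part 33, the whole intron of 191 bases) had 5.34%, 5.16% and 5.97% in WT and 8.70%, 6.39% and 8.96% in KO. That of Clk2 had 0.980%, 0.737% and 0.747% in WT and 1.63%, 1.67% and 1.00% in KO. In each of these 3 genes the KO values were above the WT values, by 0.48, 0.53 and 0.78 on the log2 scale for Clk1, Clk4 and Clk2. By share of the gene sum the Clk2 groups overlapped for this intron, at 0.145%, 0.113% and 0.118% in WT and 0.240%, 0.233% and 0.144% in KO. The Clk2 densities rest on 0.120 ± 0.0128 CPM in WT and 0.149 ± 0.0323 CPM in KO (SD, n = 3), and its KO3 value was the closest to WT. Clk3 has 1 annotated transcript and therefore no part in this intron.

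The introns beside the cassette exon were retained at higher density than the other introns of these 3 genes measured this way. Upstream of it, Clk1 (part 30, 871 bases) read 19.2%, 15.9% and 18.2% of flanking exon density in WT and 19.9%, 20.7% and 20.8% in KO. The groups did not overlap, by less than 1 percentage point between WT1 and KO1, and the exact two-sided permutation p of 0.1 is the smallest that 3 against 3 allows (0.467 adjusted over 14 such tests). Clk2 upstream read 15.1%, 14.2% and 15.5% in WT and 19.7%, 16.7% and 18.2% in KO, and Clk4 upstream 19.3%, 16.3% and 20.3% against 23.5%, 20.9% and 21.8%. All 3 upstream introns had separate groups with KO higher by this measure. For Clk4 the groups overlapped when part 21, which makes up most of the intron, was set against its 2 adjoining parts (WT3 at 29.3% and KO2 at 29%, exact permutation p = 0.200).

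Downstream of the cassette exon the groups overlapped in all 3 genes by density over the flanking exons. Clk1 (part 28) had 15.4%, 13.2% and 14.4% in WT and 15.2%, 16% and 17.3% in KO (exact permutation p = 0.200). Clk2 had 18.4% ± 1.83 and 21.9% ± 2.99, and Clk4 17.9% ± 2.02 and 19.6% ± 1.73, in WT and KO (SD, n = 3). By share of the gene sum the Clk4 groups were separate, at 4.23%, 3.66% and 4.32% in WT and 4.84%, 4.37% and 4.54% in KO. In Clk4 this is the intron whose first bases match those of Clk1.

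**Figure D4:**
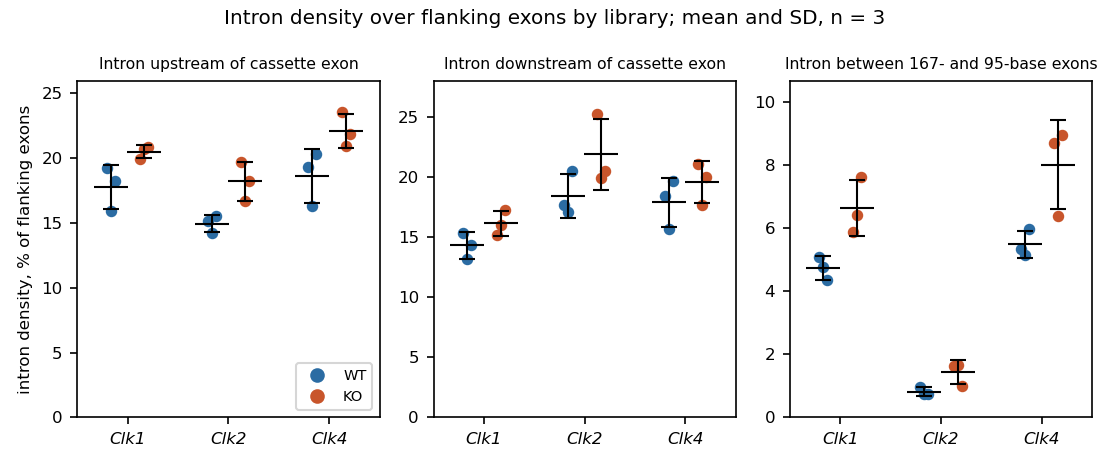
Density of 3 introns in Clk1, Clk2 and Clk4 as a percentage of the density of their flanking exons, for each WT and KO library (points) with mean and SD (bars). KO points lie above WT points upstream of the cassette exon and between the 167- and 95-base exons, and overlap with them downstream of the cassette exon.

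The 20 introns listed in Clk1, Clk2 and Clk4 lie between the exon ahead of the cassette exon and the last 91-base exon. Their mean share of the gene sum was higher in KO for 18, with 8 introns separate and higher and 1 separate and lower. By share, 6.16% of the intron-like parts of all genes were separate and higher, and 5.69% of all tested parts were separate and lower. These backgrounds are of single parts, whereas some of the 20 introns are sums of parts. Several, such as Clk1 parts 7, 12 and 26, are not intron-like as defined in the next paragraph. The 20 introns and the intron-like background, here and in CPM, thus differ in class. The exceptions to the higher mean share were 1 intron in Clk1 and 1 in Clk2. The first was the Clk1 intron between the 67- and 117-base exons, of which the files hold 43 bases, at 0.107%, 0.127% and 0.115% in WT and 0.101%, 0.0529% and 0.107% in KO, the one separate and lower. The second was the Clk2 intron between the 117- and 167-base exons, at 0.605% ± 0.0555 in WT and 0.544% ± 0.159 in KO (SD, n = 3), with overlap. Outside that stretch lie 3 further intron-like parts, all with overlapping shares: Clk1 part 5 (means of 0.297% in WT and 0.324% in KO), Clk2 part 6 (0.365% in both) and Clk2 part 32 (1.29% and 1.5%). In CPM 0 of the 20 introns were separate and higher in KO, against 7.90% of the intron-like parts of all genes, and 5 of 20 were separate and lower, against 11.7%.

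Retained-intron parts of all genes give the background for this. A part was called intron-like where it abuts parts on both sides and belongs to fewer transcripts than either. Of 17 such member parts tested, 16 had a usage change above 0 (median 0.17), against 47.1% of all 9252 tested. The 17 lie in Clk1 (6), Clk2 (5), Clk4 (4) and Srpk1 (2), and parts of the same gene are not independent of each other. With the members set aside, the median over the 9235 others was -0.01. At an unadjusted p under 0.05 in edgeR's diffSpliceDGE there were 2 of 17 as higher in KO, against 1.91%, and shares were separate and higher for 4 of 17, against 6.16%. Counts in intron-like parts made up 2.60% to 2.64% of each WT library and 2.65%, 2.39% and 2.68% of the KO libraries, so KO2 was the lowest of the 6 in this total. The one intron-like member part with a usage change under 0 was Srpk1 part 11 (373 bases), with shares of 4.36%, 3.95% and 4.15% in WT and 3.57%, 3.41% and 3.79% in KO.

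Each intron-like part of Clk1 and Clk4 was also read over its 2 adjoining parts. Among them Clk4 part 33 was separate (exact permutation p = 0.1, adjusted 0.467 over 14 tests), and Clk4 part 35 read 0.584% ± 0.416 and 0.992% ± 0.585. Clk1 part 24 read 3.66% ± 1.25 and 5.46% ± 0.488, Clk1 part 5 1.04% ± 0.256 and 1.13% ± 0.129, and Clk1 part 9 1.87% ± 0.0918 and 2.09% ± 0.433 (SD, n = 3). Clk4 parts 21 and 23, which flank the cassette exon, read 27% ± 2.75 and 30.6% ± 1.78, and 26% ± 2.04 and 28.4% ± 2.86 (SD, n = 3), with overlap. One adjoining part of each is itself intronic, and over the flanking exons the same introns read lower, as given before. For Clk1 part 21 the flanking parts are themselves intronic, so its ratio of 133% ± 7.12 in WT and 129% ± 2.20 in KO compares pieces of 1 intron, and its share of the gene was instead higher in KO by 0.39 on the log2 scale.

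Inclusion of the cassette exon was read as its density over that of its 2 flanking exons. Clk1 gave 102% ± 0.373 in WT and 100.4% ± 3.90 in KO (exact permutation p = 0.700), Clk3 107% ± 5.86 and 106% ± 4.69 (exact p = 0.900), and Clk4 92.0% ± 2.22 and 89.8% ± 3.61 (exact p = 0.5; SD, n = 3). In these 3 genes the groups overlapped. Clk2 read 94.4%, 104% and 100.4% in WT and 91.3%, 84.3% and 92.1% in KO, with separate groups and an exact permutation p of 0.1 (0.467 adjusted over the 14 tests). Retained flanking introns and the short length of the exon enter this density, so a value of 100% is not full inclusion.

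For each other member the part with the smallest usage p was also read. In Srpk1 this was part 29, 21 bases at the 5′ end, with 0.221% ± 0.0168 of gene counts in WT and 0.327% ± 0.0294 in KO (usage change 0.56, unadjusted p = 0.133, edgeR). Srpk2 part 18, a 55-base 5′ piece, held 0.171% ± 0.0257 and 0.261% ± 0.0777 (usage change 0.61, unadjusted p = 0.126, edgeR). Clk3 part 11, the exon ahead of the cassette exon, held 7.96% ± 0.309 and 7.44% ± 0.538 (usage change -0.09, unadjusted p = 0.484, edgeR).

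The SR proteins are the substrates of these kinases. Of 13 SR protein genes tested, 0 passed the edgeR test, 12 had a log2 change under 0 and 5 had an unadjusted p under 0.05, all lower in KO, with a list median of -0.18. Over all genes an unadjusted p under 0.05 was found in 22.6%, and in 11.2% as lower in KO, or in 23.7% of genes expressed at least as highly as the lowest member. Tra2b, a splicing activator, stood at 188 ± 3.79 CPM in WT and 157 ± 9.87 in KO (log2 change -0.26, edgeR adjusted p = 0.0653). Tra2a stood at 99.4 ± 3.27 and 74.4 ± 10.5 CPM (log2 change -0.42, edgeR adjusted p = 0.0867; SD, n = 3). Of 21 SR-related genes, 0 passed, 18 were under 0 and 4 had an unadjusted p under 0.05 in edgeR, 3 of them lower in KO, with a median of -0.12. Rsrc2 was at 147 ± 5.27 and 128 ± 2.34 CPM (edgeR adjusted p = 0.0728), and Luc7l, a U1 snRNP partner, at 111 ± 1.61 and 89.9 ± 11.4 CPM (edgeR adjusted p = 0.126; SD, n = 3).

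Of 16 tested kinases that also act on splicing factors, 2 fell and 0 rose, where 1.76% of all genes fell. The list median was -0.14. Dyrk1a, a kinase of nuclear speckle proteins, fell from 88.3 ± 2.79 to 74.1 ± 1.97 CPM (log2 change -0.25, edgeR adjusted p = 0.0449). Hipk1, a nuclear kinase of transcription factors, fell from 272 ± 16.3 to 221 ± 4.35 CPM (log2 change -0.30, edgeR adjusted p = 0.0479; SD, n = 3). Neither call is firm: with 1 library left out, edgeR called Dyrk1a in 0 of 6 fits (adjusted p 0.0611 to 0.171) and Hipk1 in 1 of 6, without WT3 (0.0469 to 0.195). Srpk3, the muscle SRPK, was at 1.20 ± 0.0978 and 1.33 ± 0.115 CPM.

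Of 25 genes for upstream signals, phosphatases, nuclear import and chaperones of the SRPKs, 5 fell and 0 rose, where 1.76% of all genes fell. The list median was -0.11, against -0.06 over genes at or above the lowest member's level. The 5 that fell were all heat-shock genes, whose products hold SRPKs in the cytoplasm as part of a chaperone complex or belong to the same response. Hspa1b fell from 600.4 ± 35.4 to 87.2 ± 44.1 CPM and Hspa1a from 605 ± 32.7 to 100 ± 40.9 CPM, a near-identical pair whose reads the counting could split between them (edgeR adjusted p = 0.0220 and 0.0149). Hspa8, counted as a joined locus with Snord14e and further gene identifiers, fell from 2966 ± 643 to 1443 ± 113 CPM (SD, n = 3, edgeR adjusted p = 0.0320). Hsp90aa1 fell from 567 ± 123 to 297 ± 22 CPM (edgeR adjusted p = 0.0374) and Dnajb1 from 81.9 ± 2.94 to 40.4 ± 3.47 CPM (edgeR adjusted p = 0.00554, SD, n = 3). Of these 5, Dnajb1 passed in all 6 edgeR fits that left out 1 library (adjusted p 0.0111 to 0.0452). Leaving out WT1, WT2 or KO2 ended the calls of both Hspa1a and Hspa1b (highest adjusted p 0.0786 and 0.0943, edgeR). Hspa8 and Hsp90aa1 passed only without WT3, with adjusted p up to 0.115 and 0.110 in edgeR. Tnpo3, the importin of SR proteins, was at 121 ± 5.63 and 120.4 ± 0.262 CPM (log2 change -0.01, edgeR adjusted p = 0.956). Heat shock is a known regulator of intron splicing in CLK transcripts, and the part of these differences in the CLK values was not tested.

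**Figure D5:**
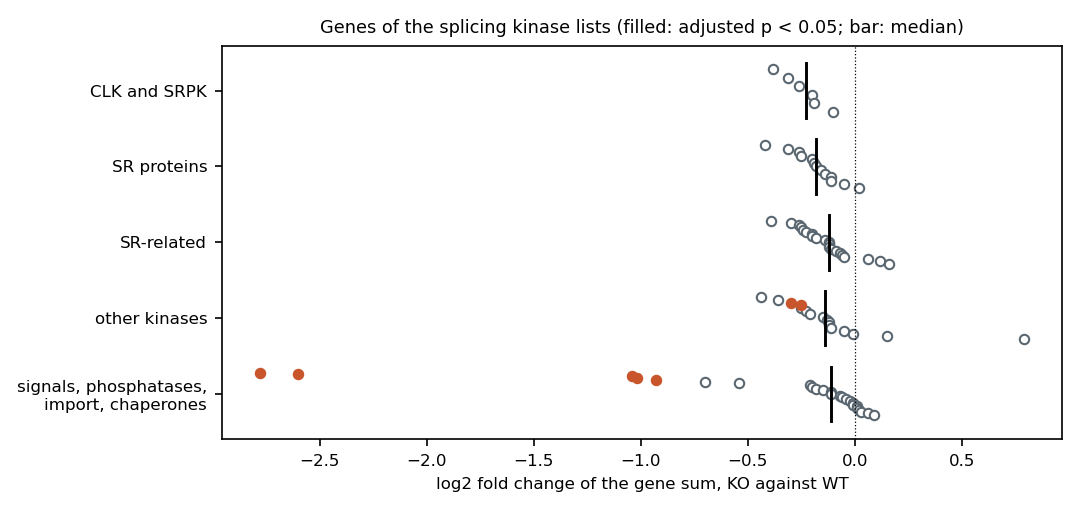
Log2 fold change of each tested gene (points, KO against WT) in the 6 CLK and SRPK genes and the 4 related lists, with list medians as bars and filled points for an edgeR adjusted p under 0.05. All medians lie under 0, and the filled points are Dyrk1a, Hipk1 and the 5 heat-shock genes.

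Vegfa, whose splicing SRPK1 is known to influence, fell from 2010.5 ± 158 to 1171 ± 156 CPM (SD, n = 3; log2 change -0.78, edgeR adjusted p = 0.0301). Of its 27 tested parts, part 12 (18 bases) had the smallest usage p, with a usage change of -0.70 (adjusted p = 0.0467, edgeR diffSpliceDGE). Neither call is firm: the level passed in 0 of 6 edgeR fits that left out 1 library (adjusted p 0.0519 to 0.125), and the usage change passed only without KO2 (0.00116), with adjusted p up to 0.619 otherwise.

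The genes with the most similar pattern were found by Pearson's r of log2 CPM over the 6 libraries, among 10463 genes whose mean log2 CPM reached 3. Clk1 was followed by Eif4e2 (r = 0.999) and Chd3 (0.998), Clk2 by Gpatch8 and Lgals4 (0.997 each) and Clk3 by Rbpms (0.994) and Rbm6 (0.992). Clk4 was followed by Degs1 (0.996) and Sclt1 (0.994), Srpk1 by Entpd7 (0.997), and Srpk2 by Gm9870 (0.996) and Gpatch2l (0.980). With so few libraries and so many genes such values describe the likeness only.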

How the data were processed

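Each deposited table gives, for every exonic part, a raw read count, the covered bases, the part's length and the covered fraction made by the authors. Per the file headers (the annotation column), parts come from Ensembl 67 on the mouse build NCBIM37. Per the submitters' processing notes, TopHat 1.4.1 and GRCh37, a human build, were used. For the counting tool and its strandedness this is not given in the sources used here. A read spanning several parts can count more than once, and antisense reads cannot be told apart. Of the member parts, 162 of 179 had a covered fraction of 1 in all 6 libraries and 1 had no counts.

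Gene counts were sums over parts, tested in edgeR 4.0.16 (R 4.3.3; TMM, filterByExpr, quasi-likelihood, KO against WT, no covariate), and usage with diffSpliceDGE in genes with at least 2 kept parts, both over the whole table with Benjamini-Hochberg adjustment and a threshold of 0.05. CPM uses TMM library sizes. The density of an exon split into parts is that of its longest part. Single ratios used exact two-sided permutation tests (SciPy 1.17.1). The tests were tested on simulated data. Symbols matched 31300 of 35981 single identifiers. Transcript classes and sequences come from GENCODE M21 by transcript identifier.

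Alternatives were RLE, other filters, DESeq2 1.42.0, limma-voom (limma 3.58.1), a replicate block, non-overlapping parts, no intron-like parts, the longest part, the gene sum as offset and leaving out each library. The members, lists and measures were chosen with earlier results of these data known. Named were all members, the part with the smallest usage p of each, intron-like parts of Clk1 and Clk4, cassette exons, the 2 genes most like each member (1 gene is not reported here), and of each list the genes past the test or else the 2 with the smallest p. Srpk3, Tnpo3 and the introns between named exons were chosen after their values were seen.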

Additional observations from a re-analysis of the deposited data

How the results depend on the processing

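In edgeR 666 genes were called (319 higher and 347 lower in KO) and 148 parts (96 and 52). For genes the count was 2532 with DESeq2, 424 with the longest part alone, 82 with the replicate block and 31 (without WT2) to 254 (without WT3) when 1 library was left out, and it stayed within 1.5 times under the other alternatives. For parts it was 409 with limma-voom diffSplice, 331 with the gene sum as offset, 129 with the replicate block and 52 to 175 without 1 library. Libraries with the same number correlated at 0.107, -0.0601 and 0.158 in their deviations, so the numbers were not taken to pair samples, and the block changed no call of a member. Of the named non-members called, Dnajb1 alone kept its call under the block (adjusted p = 0.0401, edgeR); the block gave 0.0515 for Hspa1a, 0.0552 for Hspa1b, 0.0830 for Hspa8, 0.102 for Hsp90aa1, 0.0893 for Cd2bp2, 0.0952 for Vegfa, and 0.113 for both Dyrk1a and Hipk1, and Vegfa part 12 usage had 0.769. These checks were added after seeing the data. Dyrk1a and Hipk1 were also lost with limma-voom (0.0515 and 0.0513). Tnpo3 reversed to 0.01 with at least 1 CPM in 3 libraries and to 0.03 without WT1.

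Of 90 member levels under the alternatives, 87 kept their direction and side of the threshold and 3 passed it, all with DESeq2: Clk1 at -0.31, Clk2 at -0.38 and Clk3 at -0.26. Without 1 library the edgeR adjusted p of the members ran from 0.0583 to 0.595. Of 312 usage values 2 reversed, both without 1 library: Clk1 part 5 ranged from -0.01 to 0.30 and Clk4 part 22 from -0.09 to 0.00. Of 83 intron ratios 6 reversed. Without 1 library Clk1 part 5 ranged from -0.03 to 0.32, part 9 from -0.00 to 0.30 and part 21 from -0.08 to 0.00. The change of part 21 was -0.04 over its neighbours, 0.39 as a share of the gene or over all other parts, and 0.48 for the whole intron over its flanking exons, a setting added after seeing the data; its neighbouring parts are intronic too. With 3 against 3, exact tests cannot go under 0.1.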
